A study of Mus musculus with 31 samples.

Results

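Glucose enters a cell through carriers such as SLC2A1, and glycolysis breaks it down step by step to pyruvate, which lactate dehydrogenase can turn into lactate. HIF1A is a transcription factor that is degraded when oxygen is plentiful and that drives many genes of glycolysis when oxygen is short. In macrophages and monocytes, inflammatory stimuli are also known to raise HIF1A and glycolysis. HIF1A is controlled to a large extent at the protein level, and RNA data such as these do not measure the protein.

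The RNA of 10 genes was followed cell by cell in mouse lung macrophages and related cells: the glucose carrier Slc2a1, the glycolytic enzymes Aldoa, Tpi1, Gapdh, Pgk1, Pgam1, Eno1 and Pkm, the lactate dehydrogenase subunit Ldha, and Hif1a. They were chosen by name, each matched 1 Ensembl identifier, and all 10 were found among the 47069 genes of the tables. The cells came from the right lung lobes of adult mice of 10 weeks that carried the Csf1r-GFP reporter, whose green fluorescence marks cells that use the promoter of the CSF1 receptor gene, and they were taken at day 7 after a sham operation that opened the chest. Every cell shares this reporter, age and operation, and no unoperated or otherwise treated mouse is analysed here. They were sorted as CD45+, CSF1R-GFP+ and F4/80+, and the sort label also names Ly6G without giving its sign. The 31 cells carry one set of labels, in which no animal is named. They therefore count as 1 sample, no test was made and no p-value is given. Intervals are exact Clopper-Pearson 95% intervals and cover counting error over cells only.

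Levels are in FPKM, fragments scaled to transcript length and library depth, so that genes can be ordered by level within these cells. Presence of a gene means a level of at least 1 FPKM in that cell. Totals of expected counts ran from 120835 to 4059833 a cell. The libraries differed in myeloid content: Lyz2, the lysozyme gene of monocytes and macrophages, reached 1000 FPKM or more in 20 cells, called Lyz2-high below, and stayed between 0 and 553 FPKM in the other 11. In the Lyz2-high cells 87.4 to 95.6% of counts fell on nuclear protein-coding genes (median total 1591648), against 32.8 to 87.9% in the other 11 (median total 413337). Defining markers of alveolar macrophages other than Chil3, a gene that monocytes also use, were at 0 in all 20 Lyz2-high cells (7 of 8), as were all listed markers of T and NK cells, erythroid cells, platelets and epithelium. Of 8 neutrophil genes, S100a9, Retnlg, Ltf, Lcn2 and Mpo were at 0 in them too, while S100a8 was present in 3 of the 20 cells (up to 1594 FPKM in A10), Cxcr2 in 10 (up to 9.74 FPKM) and Ly6g, the gene of the antigen whose sign the sort label omits, in 7 (up to 115 FPKM in E7).

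Hypoxia response elements share the core letters ACGTG or GCGTG, and many genes of this pathway are textbook HIF1 targets. The 250 bases before the RefSeq starts (GRCm38.p6) of the 10 genes, 16 windows in all, were therefore searched for both forms on both strands. A palindromic CACGTG counts as 2 matches. ACGTG stood in 8 of 16 windows (50%) and 7 of 10 genes, against 16.6% of 32851 windows of the same length over all genes. Either form stood in 13 windows (81.2%) and 9 of 10 genes, against 38.6% of all windows, and Tpi1 held neither in its window. The windows were rich in G and C (median 65.2%, against 52.4% over all windows). Among windows with at least 60% G and C, ACGTG stood in 8 of 11 for these genes and in 23.03% of 9178 over all genes, and either form in 10 of 11 and in 63.8%. Overlapping windows of Aldoa, and of Eno1, hold the same sites and each count as a window, which does not touch the counts of genes. A match is a description of letters and not a measured binding site. The windows with most ACGTG matches are shown because they belong to a gene with an uneven pattern between cells (Pgk1), to the last enzyme of the chain (Ldha) and to Hif1a itself, with the matched letters in capitals.
Pgk1, chrX:106186850-106187099, plus strand: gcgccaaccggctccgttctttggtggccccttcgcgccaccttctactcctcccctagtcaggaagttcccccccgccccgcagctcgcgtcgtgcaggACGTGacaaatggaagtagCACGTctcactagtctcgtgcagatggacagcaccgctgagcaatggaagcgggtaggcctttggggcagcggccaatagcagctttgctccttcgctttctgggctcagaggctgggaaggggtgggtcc
Ldha, chr7:46845554-46845803, plus strand: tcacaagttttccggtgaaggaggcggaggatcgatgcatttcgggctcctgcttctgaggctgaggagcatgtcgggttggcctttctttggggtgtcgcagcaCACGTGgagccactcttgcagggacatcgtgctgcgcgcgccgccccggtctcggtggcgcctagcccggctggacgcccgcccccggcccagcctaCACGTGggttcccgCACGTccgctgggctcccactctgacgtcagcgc
Hif1a, chr12:73907617-73907866, plus strand: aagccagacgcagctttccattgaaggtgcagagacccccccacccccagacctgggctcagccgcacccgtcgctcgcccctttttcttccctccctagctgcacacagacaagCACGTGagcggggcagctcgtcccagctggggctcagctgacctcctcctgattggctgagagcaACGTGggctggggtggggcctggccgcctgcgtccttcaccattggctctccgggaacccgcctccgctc
The Ldha window held 5 matches, the Hif1a window 3 and the Pgk1 window 2, all of the ACGTG form. The Ldha and Hif1a windows shown lie before the only or the first listed RefSeq start and inside the longer gene models of the GENCODE annotation.

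In the 20 Lyz2-high cells the members were found widely but unevenly. Eno1 was present in 17 cells, Gapdh in 16, Aldoa in 15, Hif1a in 14, Pkm in 12, Pgam1 and Ldha in 11 each, Tpi1 and Pgk1 in 7 each and Slc2a1 in 6. Thus 7 of 10 members were present in at least 50% of the Lyz2-high cells, against 13.2% of the 10818 genes present in any of them. A Lyz2-high cell held a median of 6 of the 10 genes, from 2 in B4 to 9 in B7 and H4, and no cell held all 10. Most of these calls rest on more than single counts. Of 116 values at or above 1 FPKM, 115 were backed by at least 10 expected counts and 92 by at least 100, with a median of 516. Counts include amplified copies, so the number of captured RNA molecules behind a call is not known. By median FPKM the order was Gapdh, Eno1, Aldoa, Pkm, Hif1a, Ldha and Pgam1, followed by Slc2a1, Tpi1 and Pgk1 with medians of 0. Every gene was at 0 in at least 3 of these cells, so the ranges of all neighbours in this order overlap, and Pkm and Hif1a change places with the choice of cells and when FPKM is rescaled to equal totals in the same 20 cells.

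**Figure D1:**
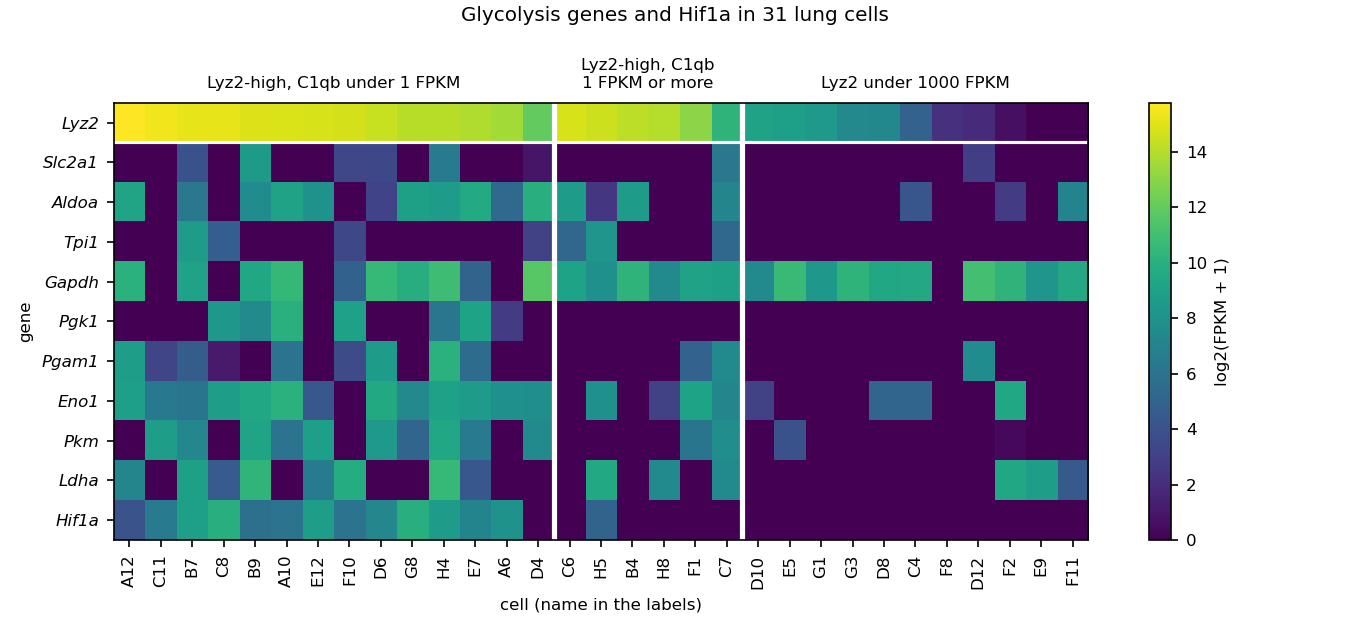
Level of Lyz2 and the 10 genes as log2(FPKM + 1) (colour) in each of the 31 cells, with the Lyz2-high cells on the left split by C1qb and the 11 cells with Lyz2 under 1000 FPKM on the right. Dark fields are values at or near 0: they break up every row, and the Hif1a row is dark in all 11 cells on the right and in 5 of the 6 cells with C1qb.

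Slc2a1, the basal glucose carrier, was the least often found. Its levels in the Lyz2-high cells ran from 0 to 387.5 FPKM with a median of 0, and it was present in 6 of 20 cells (30%, interval 11.9 to 54.3%). The cell B9 alone held 65.9% of the summed FPKM, followed by H4 at 87.0 FPKM and C7 at 78.9 FPKM. In the other cells with Slc2a1 (B7, D6 and F10) the level was 9.25 to 14.6 FPKM, so strong expression was seen in 3 cells.

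Aldoa, the aldolase that splits the six-carbon sugar, was present in 15 of 20 cells (75%, interval 50.9 to 91.3%) at 0 to 945 FPKM (median 176). Its highest cells were D4 at 945 FPKM and E7 at 795 FPKM. Tpi1, which interconverts both products of aldolase, was present in 7 cells (35%, interval 15.4 to 59.2%) at 0 to 421 FPKM (median 0). Tpi1 was high in B7 (421 FPKM) and H5 (293 FPKM) and reached at most 39.7 FPKM in the other 5 cells that held it. Of these neighbours in the pathway, Aldoa was seen in most cells and Tpi1 in few: both were present in 5 cells, against 5.25 expected from their separate frequencies.

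Gapdh, which carries out the oxidation step and is often used as a reference gene, had the highest median, 549.9 FPKM, and ran from 0 to 3318 FPKM in D4. It was present in 16 of 20 cells (80%, interval 56.3 to 94.3%), and A6, C11, C8 and E12 had 0 counts. Gapdh has 184 near-identical copies in the genome (at least 90% identity over at least 200 bases). These rows held 8.42% of the counts of Gapdh and its copies together. The leading row was that of the gene Peli2, with 1061 of the 2633 counts on copies. Whether those reads came from Peli2 itself or from a Gapdh-like stretch was not tested. In the 4 cells without Gapdh the copies held at most 1 count. The opposite-strand gene Iffo1, which shares 68 bases with Gapdh, held 22.98 to 260 counts in those 4 cells, and reads of overlapping genes cannot be told apart without strand. Those 4 cells held 287.9 to 862 FPKM of the other 8 glycolysis genes in sum.

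Pgk1, the first of the enzymes that make ATP in glycolysis, was present in 7 of 20 cells (35%, interval 15.4 to 59.2%), namely A10, E7, F10, C8, B9, H4 and A6. In these cells the level was 1029, 578, 512, 342, 187.5, 71.2 and 5.61 FPKM in that order. Its distribution was close to on and off, since the other 13 cells had 0 FPKM. The copy Pgk1-rs7 held 14.2% of the joint counts, and 2 of the 13 cells without Pgk1 had at least 10 counts on copies (at most 119). Pgam1, the mutase of the next step, was present in 11 cells (55%, interval 31.5 to 76.9%) at 0 to 1069 FPKM (median 4.92). Only H4 (1069 FPKM), A12 (434 FPKM), D6 (411 FPKM), C7 (179 FPKM) and A10 (64.4 FPKM) reached 50 FPKM. Copies, mainly the row Pgam1-ps2, held 10.2% of its joint counts. For the 7 other members, copies held under 1%.

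Eno1, the enolase found in most tissues, was the most widely present, in 17 of 20 cells (85%, interval 62.1 to 96.8%) at 0 to 1074 FPKM (median 235). It was absent in B4, C6 and F10. Pkm, pyruvate kinase, was present in 12 cells (60%, interval 36.1 to 80.9%) at 0 to 672 FPKM (median 67.4), and each of the 12 held at least 34.6 FPKM. Ldha was present in 11 cells (55%, interval 31.5 to 76.9%) at 0 to 1522.5 FPKM (median 20.1). Its high cells were H4 (1522.5 FPKM), B9 (1268 FPKM), F10 (864 FPKM) and H5 (753 FPKM), while 9 cells had 0. The highest levels fell in few cells: H4 was highest for Pgam1, Pkm and Ldha, D4 for Gapdh and Aldoa, and A10 for Pgk1 and Eno1. Slc2a1 was highest in B9 and Tpi1 in B7. The summed FPKM of the 9 glycolysis genes ran from 287.9 in A6 to 6211 in H4, a 21.6-fold range within the Lyz2-high cells.

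Hif1a was present in 14 of 20 Lyz2-high cells (70%, interval 45.7 to 88.1%) at 0 to 985 FPKM (median 62.6). The highest were C8 (985 FPKM), G8 (954 FPKM), B7 (480 FPKM), E12 (437 FPKM) and H4 (399 FPKM), and it was at 0 in B4, C6, C7, D4, F1 and H8. FPKM rests on the transcript length to which the authors' RSEM run assigned the reads, and for Hif1a the length implied by counts and FPKM was 545 to 4304 bases in these 14 cells, a 7.90-fold range. For 7 of the other members the implied length differed by at most 1.09-fold between cells, and for Tpi1 and Gapdh by 2.80-fold and 3.17-fold. By CPM, expected counts scaled to equal cell totals without regard to length, H4 was the highest at 1719, followed by G8 at 1354 and A6 at 1138. The cell C8, first by FPKM, had 280 counts or 537 CPM, against 6063 counts in H4. The order of cells by Hif1a level therefore depends on the scale, and presence or absence does not.

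**Figure D2:**
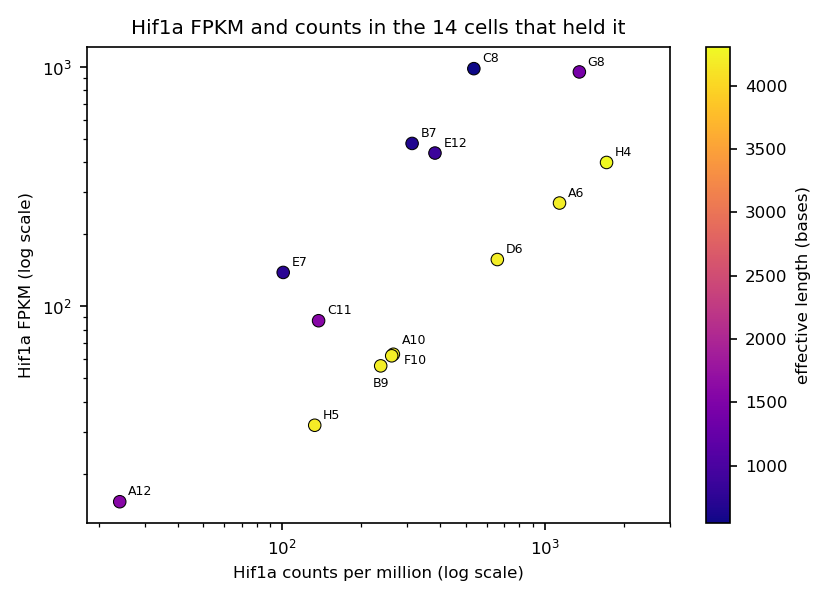
Hif1a FPKM (vertical) against Hif1a counts scaled to the cell's total as CPM (horizontal), both on log scales, in the 14 cells that held it, coloured by the transcript length in bases that the 2 values imply. Cells with a short implied length, such as C8, E12, B7 and E7, lie above the line of cells with a length of 4174 to 4304 bases, from H5 up to H4.

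The 11 cells with Lyz2 under 1000 FPKM held fewer of these genes, with Gapdh as the exception. Gapdh was present in 10 of 11 (90.9%, interval 58.7 to 99.8%) with a median of 729 FPKM and a highest value of 2100 FPKM in D12, a range that overlaps that of the Lyz2-high cells. Eno1 was present in 4 of the 11, Aldoa and Ldha in 3 each, and Slc2a1, Pgam1 and Pkm in 1 each. Tpi1, Pgk1 and Hif1a were in 0 of 11, which allows a share of up to 28.5%. F2 held the most Eno1 and Ldha of the 11 (693 and 675 FPKM), and F8 held none of the 10 genes. Over all genes the order was the other way, with a median of 3200 genes present in these cells (2141 to 3574) against 2415 in the Lyz2-high cells (1856 to 3523). Their median total of counts and the median share on nuclear protein-coding genes were lower. The part of depth and of library content in these absences was not tested.

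Within the Lyz2-high cells, C1qb, a complement gene of tissue macrophages, and Ly6c2, a surface antigen gene of inflammatory monocytes, marked cells that did not overlap. C1qb was at 3729 to 13305 FPKM in 6 cells and at 0 to 0.63 FPKM in 14. Ly6c2 was present in 10 of those 14, and 4 cells (C11, D4, D6 and F10) had neither. Summed interstitial macrophage markers were 12912 to 65413 FPKM in the cells with C1qb against 0 to 5420 FPKM in those without. That list includes C1qb, which defines the division, so its sum differs in part by construction. Summed classical monocyte markers, a list that includes Ly6c2, were 2.02 to 761 FPKM against 615 to 18882 FPKM. Ly6c2 itself was at 0 FPKM in all 6 cells with C1qb. The B cell list summed to 345 to 1045 FPKM with C1qb and to 0 to 508 FPKM without, with Cd79a at 0 in all 20 cells. The neutrophil list summed to 0 to 1.35 FPKM with C1qb and to 0 to 1594 FPKM without.

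Hif1a followed this division. It was present in 13 of the 14 cells without C1qb (92.9%, interval 66.1 to 99.8%) at 0 to 985 FPKM (median 148), with D4 as the one cell at 0. In the 6 cells with C1qb it was at 0 in B4, C6, C7, F1 and H8 and at 31.9 FPKM in H5 (1 of 6, interval 0.421 to 64.1%). The ranges overlapped at H5 and D4. Such a gap in presence was rare: 0.541% of the 3694 genes present in at least 25% of Lyz2-high cells were present this much more often in the cells without C1qb, 20 genes in all with Hif1a among them. The others included the monocyte genes Plac8, Hp, F13a1 and S100a6 and the activation genes Clec4e and Plaur, which were picked from the 20 after their values were seen. The median total of expected counts was 2177839 (767318 to 4059833) in the cells with C1qb and 1433691 (521492 to 3526674) in those without. The part of depth in this gap was not tested. The count of 13 of 14 against 1 of 6 was the same at FPKM 5, at 10 counts and after thinning every cell to 120829 counts. It was 12 against 0 at FPKM 50. With a Lyz2 minimum of 100 FPKM it was 13 of 19 against 1 of 6, and with one of 10000 FPKM 13 of 13 against 1 of 4. Hif1a has no near-identical copies to add. The monocyte, macrophage, neutrophil and B cell marker sums above moved with the C1qb division, the macrophage sum in part because it includes C1qb. Ly6g was present in 7 of the 14 cells without C1qb and in 0 of the 6 with it, and all 7 held Ly6c2 and Hif1a. The part of these markers in the result was not tested.

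Most of the glycolysis genes had higher medians in the cells without C1qb. Of the 10 members, 6 had a median at least 2-fold higher there on the log2(FPKM + 1) scale, against 20.4% of 3694 genes, and only Tpi1 was at least 2-fold higher with C1qb, against 26.1%. The median difference over the members was 2.21 log2 units, against 0 over the 3694 genes. The 6 members and this median include Hif1a, at 7.21 log2 units. Among the 9 glycolysis genes alone, the middle difference was that of Pgk1, 1.36 log2 units. Pkm was present in 10 of 14 cells (median 123 FPKM) against 2 of 6 (median 0), a difference of medians of 6.89 log2 units. Eno1 was present in 13 of 14 (median 321 FPKM) against 4 of 6 (median 78.6 FPKM), and Aldoa in 11 of 14 (median 238 FPKM) against 4 of 6 (median 75.8 FPKM). Pgk1 was present in 7 of 14 against 0 of 6 (interval 0 to 45.9%), or 8 against 1 when its copies were counted. It is one of the 6, with a difference of 1.36 log2 units, or 0.32 with a pseudocount of 10. Its median without C1qb, 2.805 FPKM, lies midway between 0 and the 5.61 FPKM of A6, a value that rests on 10 counts. Pgam1 was present in 9 of 14 against 2 of 6. Gapdh went against this pattern in presence, with 10 of 14 against 6 of 6, and its medians were alike at 628 and 525 FPKM (0.25 log2 units). Ldha was present in 8 of 14 and 3 of 6, and its median FPKM was lower without C1qb (20.1) than with it (90.5), although the median of log2(FPKM + 1) was 0.64 higher. Slc2a1 was present in 5 of 14 and 1 of 6, with medians of 0. The values of every gene overlapped between these cells. With a Lyz2 minimum of 100 FPKM, which adds 5 cells without C1qb, the differences of medians of Pgk1 and Pgam1 were 0, that of Aldoa 0.58 and that of Ldha -3.75 log2 units.

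**Figure D3:**
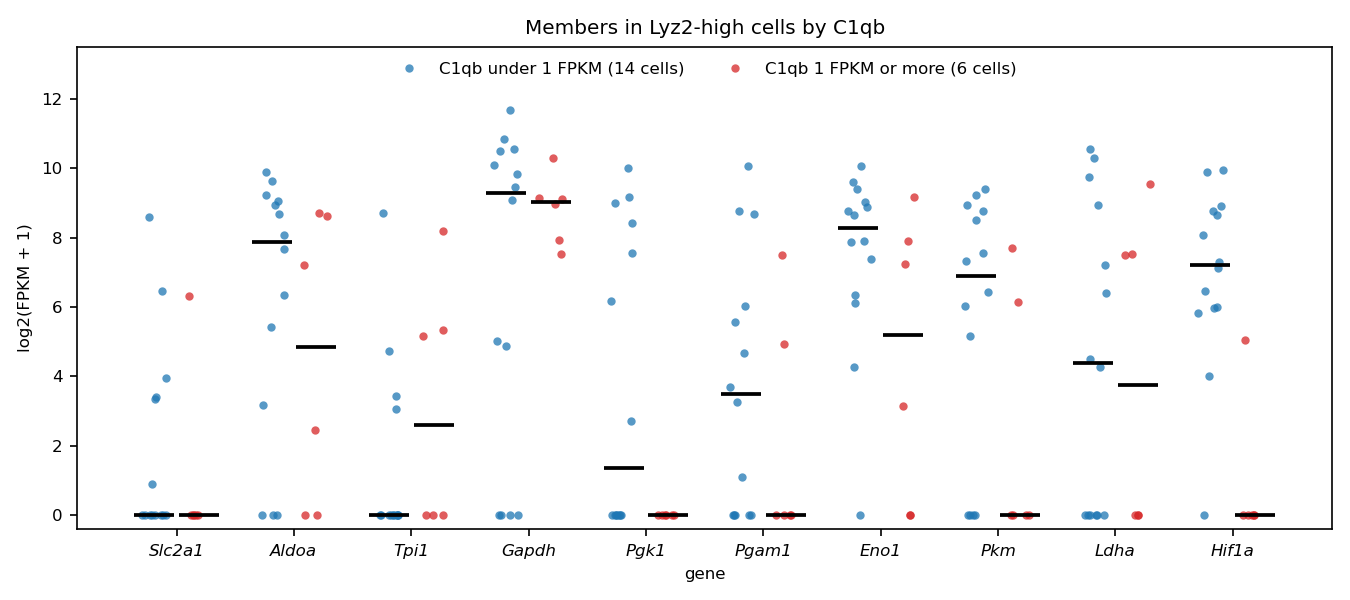
Each point is 1 Lyz2-high cell, with log2(FPKM + 1) of the gene on the vertical axis and black bars at the medians, for 14 cells without C1qb (blue) and 6 with it (red). Hif1a has 13 of 14 blue points above 0 and 5 of 6 red points at 0, whereas the Gapdh medians lie side by side.

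Division by Ly6c2 gave a like picture over partly the same cells, so it adds no separate evidence. Hif1a was present in 10 of 10 cells with Ly6c2 (15.3 to 985 FPKM, median 335) and in 4 of 10 without (0 to 157 FPKM, median 0). A gap this wide was found for 1.35% of the 3694 genes. Of the members, 7 had a median at least 2-fold higher with Ly6c2, Hif1a among them, against 21.7% of genes. Only 1, Tpi1, was at least 2-fold higher without, against 20.2%. Eno1 was in 10 of 10 against 7 of 10, Aldoa in 9 against 6, Ldha in 7 against 4, Pkm in 7 against 5, Pgam1 in 6 against 5 and Pgk1 in 6 against 1. Slc2a1 was in 3 against 3, Gapdh in 7 against 9 and Tpi1 in 2 against 5. In the 4 cells with neither gene, Hif1a was at 62.2 FPKM in F10, 87.1 FPKM in C11, 157 FPKM in D6 and 0 in D4. Presence of Hif1a thus extended to 3 of the 4 cells that lack both markers.

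The levels of the glycolysis genes were only weakly related from cell to cell. Over the 36 pairs of the 9 glycolysis genes, the Spearman correlation over the 20 Lyz2-high cells had a median of 0.16 and ran from -0.36 (Tpi1 and Eno1) to 0.59 (Slc2a1 and Pkm). It was above 0 in 25 pairs (69.4%). All 195000 pairs of 625 genes present in at least 75% of these cells had a median of 0.02, and 53.5% were above 0. Of the 9 genes only Eno1, Gapdh and Aldoa reach that share of cells. All pairs of genes present in at least 35% of the cells, a share that only Slc2a1 misses, had a median of 0.01. Of those pairs, 51.7% were above 0. The highest values after Slc2a1 and Pkm were Aldoa with Gapdh (0.59) and Slc2a1 with Ldha (0.54), and those with Slc2a1 rest on the 6 cells that held it. Hif1a with the 9 genes had a median of 0.10, from -0.27 with Gapdh to 0.34 with Pgk1, beside a median of 0.12 with the 625 genes. These 20 points share their library preparation and differ in depth: the mean log2 level of the 9 genes had a correlation of 0.40 with total counts, and Hif1a one of -0.36. In counts this sparse such values describe these 20 cells and no more.

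**Figure D4:**
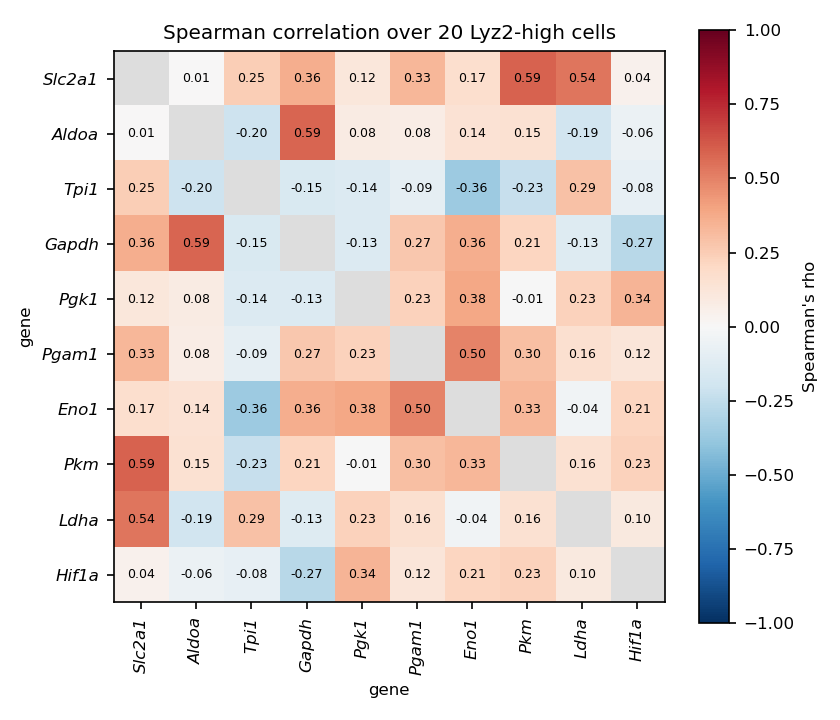
Spearman correlation (colour and number) of each pair of the 10 genes over the 20 Lyz2-high cells, with the diagonal left grey. Most fields are pale, the strongest are Slc2a1 with Pkm and Aldoa with Gapdh at 0.59, and the Hif1a row runs from -0.27 to 0.34.

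Joint presence was also close to what the separate frequencies give. Of the 45 pairs of the 10 genes, 31 were present together in more cells than their separate frequencies give and 14 in fewer, and no pair departed by more than 2.1 cells. That pair was Pgk1 and Hif1a: all 7 cells with Pgk1 also held Hif1a, against 4.9 expected. All 12 cells with Pkm held Eno1 (10.2 expected), and all 6 with Slc2a1 held Gapdh (4.8 expected). Each of these pairs was at the largest overlap possible, so small departures cannot show whether the genes were present independently. The widest shortfall was Aldoa with Pgam1, in 7 cells against 8.25 expected. Hif1a and Gapdh were both present in 10 cells against 11.2 expected, since the 4 cells without Gapdh all held Hif1a.

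Known partners and targets of HIF1A gave few further pairs. Il1b, the interleukin 1 beta gene and a HIF1 target in macrophages, was present with Hif1a in 12 cells against 11.2 expected, with a Spearman correlation of 0.51 over the 20 cells. Within the 14 cells without C1qb the joint count was 12 against 12.1 expected. Vegfa, a growth factor of blood vessels, was present in 3 Lyz2-high cells and all 3 held Hif1a (2.1 expected). The glucose carrier Slc2a3 was present with Hif1a in 6 cells (5.6 expected), the hexokinase Hk2 in 5 (5.6 expected) and Pfkfb3, which makes an activator of phosphofructokinase, in 1 (2.8 expected). Egln3, an oxygen-sensing hydroxylase, and Adm, the adrenomedullin gene, were in none of the 31 cells, and Bnip3, a mitophagy gene, was in no Lyz2-high cell.

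The other genes of the pathway were found less often than the members. Of 19 further glycolysis enzymes and isozymes, 11 were present in at least 1 of the 31 cells and 1 in at least 50% of the Lyz2-high cells. That gene was Gpi1, glucose-6-phosphate isomerase, in 15 of 20 cells (0 to 1288 FPKM, median 31.1). Hk2 was in 8, the phosphofructokinase Pfkp in 7 and Hk3 in 3 of the 20. Aldoc, Eno2, Eno3, Gapdhs, Pgam2, Pgk2 and Pklr, isozymes known mainly from other tissues, were in none of the 31. Gpi1 was also in 11 of 11 cells with low Lyz2, at 2.35 to 152.7 FPKM.

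Of 15 carriers and control genes, 8 were present in at least 1 cell and none in at least 50% of the Lyz2-high cells. Slc2a6, a carrier of the glucose carrier family, was in 8 of the 20 (0 to 576.5 FPKM), all without C1qb. The lactate exporter Slc16a3 was in 7 (0 to 207 FPKM), all with Ly6c2. Slc2a3 was in 8 at no more than 25.5 FPKM and Pfkfb4 in 5. Among the 3 carriers Slc2a1, Slc2a3 and Slc2a6, Slc2a6 held 73.5% of the summed FPKM in the Lyz2-high cells, Slc2a1 24.6% and Slc2a3 1.88%. Pdk2, Pdk4, Pfkfb1, Slc16a1, Slc2a4, Slc2a8 and Tigar were in none of the 31 cells.

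Of 9 genes of HIF subunits and oxygen sensing, 5 were present in at least 1 cell and none in at least 50% of the Lyz2-high cells. Vhl, which marks HIF1A for degradation, was in 4 of the 20, the HIF partner subunit Arnt in 3, and the oxygen-sensing hydroxylases Egln1 in 3 and Egln2 in 2. Arnt2, Egln3, Hif1an and Hif3a were in none of the 31. Of 16 HIF targets outside glycolysis, 13 were present in at least 1 cell and 2 in at least 50% of the Lyz2-high cells, namely Il1b in 16 (median 589 FPKM) and the mitophagy receptor Bnip3l in 15 (median 371 FPKM). The chemokine receptor Cxcr4 was in 9 and the haem oxygenase Hmox1 in 6. Adm, Ankrd37 and Nos2 were in none. Il1b had a median of 5488 FPKM in the cells without C1qb and of 123 FPKM in those with it.

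When the genes were grouped into 12 steps from glucose uptake to lactate dehydrogenase, a grouping made after the values were seen, a Lyz2-high cell held at least 1 gene of a median of 7.5 steps, from 3 to 11. C7 and H4 held 11, and no cell held all 12. The cells with low Lyz2 held a median of 5. The most complete steps in the Lyz2-high cells were enolase (17 of 20 cells), glucose uptake and glyceraldehyde-3-phosphate dehydrogenase (16 each). The least complete were triosephosphate isomerase and phosphoglycerate kinase (7 each). These depend on 1 gene in these cells, but so do glyceraldehyde-3-phosphate dehydrogenase, aldolase (15), glucose-6-phosphate isomerase (15), pyruvate kinase (12) and phosphoglycerate mutase (11). Glucose uptake pools 3 genes, Slc2a1 in 6 cells and Slc2a3 and Slc2a6 in 8 each. It rests on Slc2a3 alone in B4 (25.5 FPKM), E7 (1.26 FPKM), H5 (1.19 FPKM) and H8 (1.71 FPKM). In A10, A6 and D4 it rests on Slc2a6 alone. The place of glucose uptake among the most complete steps thus depends on values close to the minimum of 1 FPKM.

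**Figure D5:**
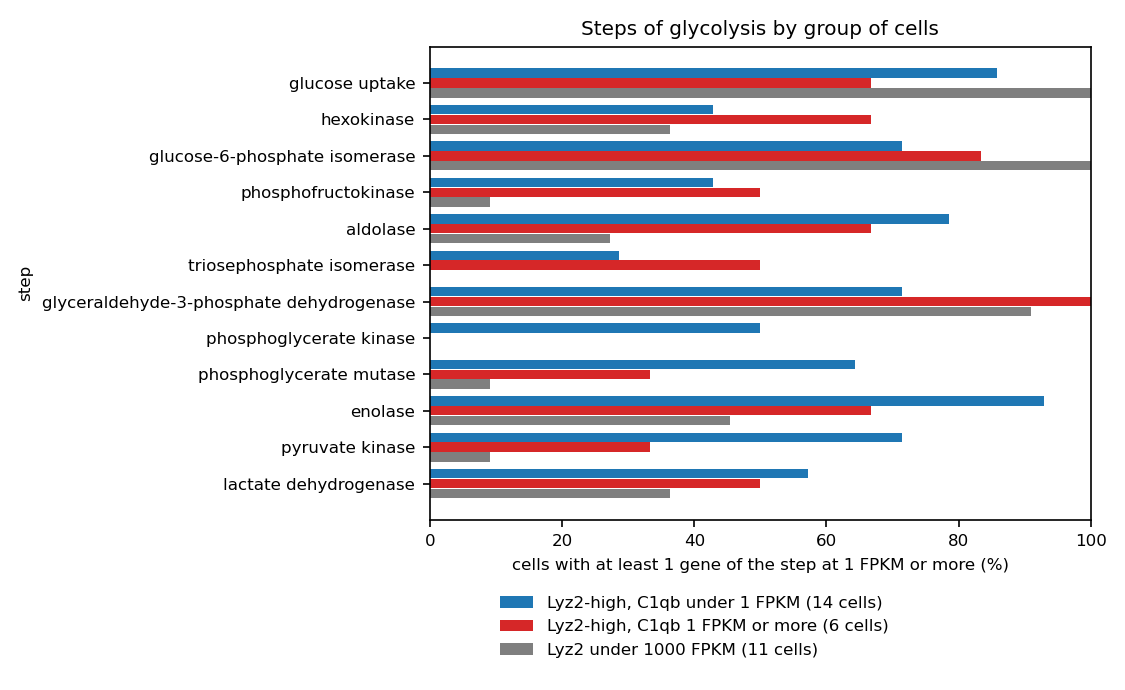
Share of cells in percent (horizontal) with at least 1 gene of each of 12 steps of glycolysis at 1 FPKM or more, for 14 Lyz2-high cells without C1qb, 6 with C1qb and 11 cells with low Lyz2. Phosphoglycerate kinase has a bar only in the cells without C1qb, while glyceraldehyde-3-phosphate dehydrogenase is high in all 3.

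Among 551 protein-coding genes present in at least 75% of the Lyz2-high cells, those most like the mean log2 level of the 9 glycolysis genes were Uqcr11 (Spearman 0.73), a respiratory chain subunit, the actin regulators Cfl1 (0.67) and Arpc5 (0.66), the proteasome maturation gene Pomp (0.60) and the peroxiredoxin Prdx5 (0.58). Those most like Hif1a were the fibronectin gene Fn1 (0.76), Lars2 (0.69), S100a4 (0.69), the ribosomal protein gene Rps9 (0.69) and Gm9844 (0.65). The 2 lists share no gene. Fn1 is also one of the classical monocyte markers that moved with the C1qb division. These are the highest of 551 values over 20 cells and describe a ranking only.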

How the data were processed

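Single cells were captured on a Fluidigm C1 chip, polyadenylated RNA was amplified with SMARTer chemistry and libraries were made with Nextera XT, per the labels' protocols. The chemistry does not mark strand and uses no molecular identifiers, so counts include amplified copies. The submitters' processing notes name the GRCm38 build and the tools RSEM, Trimmomatic and CASAVA 1.8. The authors deposited RSEM expected counts, estimated read counts per gene, and FPKM values. No source used here gives their order, settings or annotation release. Of 75 count columns, 31 matched a labelled cell and 44 matched none and were not used. Symbols were matched for 46488 of 47069 genes, and gene models are GENCODE M21.

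Presence was FPKM 1 or more, Lyz2-high was Lyz2 FPKM 1000 or more, and differences are of medians of log2(FPKM + 1). Near-identical copies were found with blastn 2.17.0, and statistics used Python 3.11.15, pandas 2.3.3 and scipy 1.17.1. The correlation steps were tested on simulated data. The genes named are the 10 members, the 4 genes of each list present in most Lyz2-high cells, list genes present in none, the genes paired with Hif1a and the 5 genes most like each pattern. Not every gene under this rule is reported here. Others named were chosen after their values were seen. Members, lists and rules were chosen with earlier results of these data known. Alternatives included other presence minimums, Lyz2 minimums, thinning, rescaling, pseudocounts, copies and a minimum of 80% of counts on nuclear protein-coding genes. CPM and copies by sequence were added after seeing the data.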

Additional observations from a re-analysis of the deposited data

How the results depend on the processing

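The median number of members per Lyz2-high cell (6) was 4 to 6 over 8 alternatives, the median of the member medians (41.3 FPKM) was 7.505 to 45.01 FPKM over 5, and the median pair correlation (0.16) was 0.14 to 0.24 over 10. The median correlation of Hif1a with the glycolysis genes (0.10) was 0.05 to 0.33 over 10. It moved to 0.33 with a Lyz2 minimum of 100 FPKM, a setting that adds 5 cells, all without Hif1a. Of 90 numbers of cells holding a member, 87 kept their share of cells within 1.5 times. Some of them could not differ. A minimum of 80% of counts on nuclear protein-coding genes removed none of the 20 cells, whose lowest share was 87.4%. That setting enters every tally of alternatives in this paragraph. Slc2a1 and Hif1a have 0 copies, so adding copies could not change their numbers. Of 80 differences by C1qb, 77 moved by less than 1 SD over cells, a wide allowance of 2.48 (Hif1a) to 4.44 (Ldha) log2 units. Falls from 3.48 to 0 for Pgam1 and from 1.36 to 0 for Pgk1, with a Lyz2 minimum of 100 FPKM, stayed within it. Slc2a1 had a difference of 0 at every setting. None of the differences of at least 1 log2 unit changed sign. At FPKM 50 or more Slc2a1 was present in 3 cells, Tpi1 in 2 and Pgam1 in 5. The Hif1a difference by C1qb was 10.53 log2 units with a pseudocount of 0.1 and 3.98 with 10, and the Eno1 difference was 7.08 at Lyz2 10000 or more. The Ldha difference had no stable sign (-3.75 to 2.24), Aldoa ran from 0.58 to 3.17, Pkm from 3.67 to 10.20, Pgam1 from 0 to 6.68 and Pgk1 from 0 to 2.92. No paired analysis was possible because all cells belong to 1 group. Amplified reads without molecular identifiers and 20 cells limit the precision, and a value of 0 may be RNA that was not captured.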

Other observations

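Branches beside glycolysis were present to different degrees in the 20 Lyz2-high cells. Of 7 pentose phosphate genes, all 7 were present in at least 1 of these cells and 1 in at least 50% of them. That gene was Taldo1, transaldolase, in 19 of 20 cells (0.30 to 1753 FPKM, median 610.5), more often than any of the 9 glycolysis genes. Pgls and Tkt were in 8 cells each and Pgd in 7. Of 13 genes of pyruvate entry and the TCA cycle, all 13 were present in at least 1 cell and 1 in at least 50%, namely the pyruvate dehydrogenase subunit Pdhb in 11 cells (0 to 543 FPKM, median 10.2). Citrate synthase (Cs) and the mitochondrial pyruvate carrier genes Mpc1 and Mpc2 were in 9 cells each.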
